A study of Mus musculus with 9 samples.

Results

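The genes described here encode 10 proteins through which platelets sense thrombin, nucleotides and neighbouring cells and turn these signals into activation, namely F2r, F2rl2, F2rl3, P2ry12, P2rx1, Trpc6, Cd226, Pde3a, Plek and Alox12. They were chosen by symbol from a table of 49585 genes, and each symbol had 1 row. Bulk RNA sequencing libraries were compared for 3 populations of wild-type C57BL/6 mouse cells, with 3 libraries each and 9 in all. CD34-CD150+KSL haematopoietic stem cells (HSCs; KSL stands for the Kit+, Sca-1+ and lineage- phenotype) from bone marrow had been expanded in F12 medium with 0.1% PVA (polyvinyl alcohol), antibiotics and ITS, with thrombopoietin at 100 ng/ml and stem cell factor at 10 ng/ml. Culture lasted a week by the growth protocol but 10 days by the design text. All populations therefore share the culture and its thrombopoietin, and no uncultured cells were analysed here.

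KSL cells of these cultures were sorted by CD201, CD150 and CD48. The names CD201+CD48- and CD201+CD48+ stand for the CD150+ fractions CD201+CD150+CD48-KSL and CD201+CD150+CD48+KSL, while CD201- stands for CD201-KSL. For CD201- cells the titles also give CD150+CD48+, whereas the treatment label does not. The CD201 transcript, Procr, averaged 63.2 ± 3.74, 26.5 ± 2.16 and 3.56 ± 1.07 CPM (counts scaled to a common library size after TMM normalization, in parts per 1000000) in CD201+CD48-, CD201+CD48+ and CD201- cells (SD, n = 3 each). Total counts ran from 3810123 to 7072885 per library. Within populations, CD201- replicate 3 stood apart, with over 2-fold differences from the other CD201- libraries in 679 and 680 of 11619 tested genes, against 100 to 225 for every other pair within a population. Nothing in the labels says that replicates were separate cultures or animals, so p-values measure the spread between these libraries, which may be technical.

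Thrombin activates platelets by cutting protease-activated receptors, which couple to G proteins. ADP and ATP released from platelet granules act on P2Y and P2X receptors and amplify the response, and the signals meet at calcium, protein kinase C, Rap1 and the platelet integrin, while cyclic nucleotides oppose them. Megakaryocytes make these components before platelets are shed, and some HSCs carry transcripts of the same lineage.

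Of the 10 genes, 6 were higher in CD201+CD48- than in the CD201- population, 3 did not pass and P2ry12 was too low to test, while between the CD201+ populations 8 were higher in CD201+CD48- cells and 1 did not pass. CD201+CD48+ cells had 3 genes lower and 1 higher than CD201- cells. The test was the quasi-likelihood F test of edgeR with p-values adjusted over all tested genes. Of all tested genes, 24.2% were higher and 23.9% lower in CD201+CD48- than in the CD201- population. Between the CD201+ populations, CD201+CD48- cells had 9.05% higher and 6.31% lower, and 14.8% were higher and 14.3% lower in CD201+CD48+ than in the CD201- population. The libraries did not overlap for 6 of the 9 tested genes between CD201+CD48- and CD201- cells (55.2% of all tested genes), for 3 between CD201+CD48+ and CD201- cells (41.7%) and for all 9 between the CD201+ populations (40.7%). A gene was tested if about 1.92 CPM was reached in at least 3 libraries. F2r, F2rl3, P2rx1, Trpc6 and Plek did so in all 9 libraries. F2rl2, Pde3a and Alox12 did so in the 3 CD201+CD48- libraries alone and Cd226 in these and 1 CD201- library, so these 4 genes had to differ in order to be tested and the counts support nothing about the set. Cells of a population may differ in how many express a gene or in the RNA each holds, and bulk libraries cannot tell these apart.

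**Figure D1:**
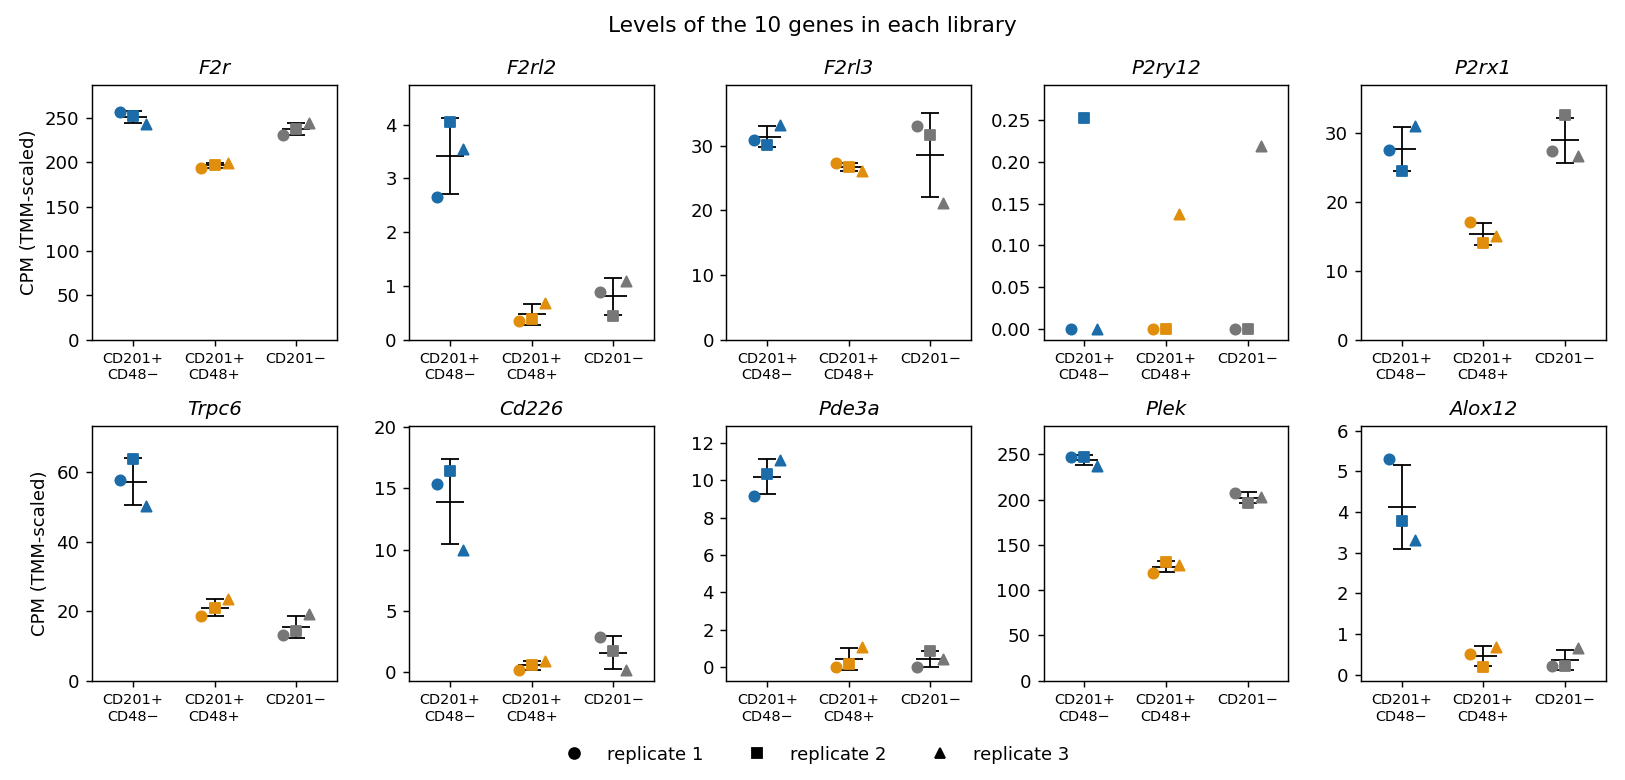
Level of each gene in each library in TMM-scaled CPM (vertical axes, linear) by sorted population (horizontal axis); symbols mark replicates, and bars give mean ± SD of 3 libraries for the 9 tested genes. Plek, F2r and P2rx1 lie lowest in CD201+CD48+ cells, while Trpc6, Cd226, Pde3a, Alox12 and F2rl2 stand out in CD201+CD48- cells.

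The thrombin receptors split by level and by pattern. F2r encodes PAR1, the main thrombin receptor of human platelets, whereas mouse platelets are known to use PAR3 and PAR4, encoded by F2rl2 and F2rl3. F2r (chromosome 13, 95601780 to 95618466, mm10) had 256.9, 252.4 and 243.1 CPM in CD201+CD48- libraries, 193.6, 196.4 and 199.3 CPM in CD201+CD48+ libraries and 230.4, 237.1 and 244.1 CPM in CD201- libraries. The CD201+CD48+ libraries lay below all others, and the remaining populations overlapped. F2r was 0.35 ± 0.07 higher on the log2 scale in CD201+CD48- than in CD201+CD48+ cells (SE; edgeR adjusted p = 0.00234) and 0.27 ± 0.07 lower in CD201+CD48+ than in the CD201- population (log2 fold change -0.27, adjusted p = 0.00748). For CD201+CD48- over CD201- cells it did not pass (log2 fold change 0.08 ± 0.07, adjusted p = 0.352). Both comparisons with CD201- cells depended on the scaling. With library size alone the call for CD201+CD48+ cells was lost (-0.14, adjusted p = 0.112) and one for CD201+CD48- cells was gained (0.25, adjusted p = 0.00412).

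F2rl2 encodes PAR3, which in mouse platelets is known to help thrombin act on PAR4. Its counts were 15, 16 and 16 in CD201+CD48- libraries, 2, 2 and 5 in CD201+CD48+ libraries and 4, 2 and 5 in CD201- libraries, or means of 3.41 ± 0.706, 0.469 ± 0.19 and 0.804 ± 0.34 CPM (SD, n = 3 each). Every CD201+CD48- library lay above every other library. F2rl2 was 6.59-fold higher in CD201+CD48- than in CD201+CD48+ cells (log2 fold change 2.72 ± 0.45, edgeR adjusted p = 7.28e-04) and 4.08-fold higher than in the CD201- population (2.03 ± 0.44, adjusted p = 0.00138), while CD201+CD48+ and CD201- cells did not differ past the threshold (-0.69 ± 0.62, adjusted p = 0.43). The gene (chromosome 13, 95696920 to 95702768) lies inside Iqgap2 on the opposite strand, and since the use of strand in counting is not stated, reads of both cannot be told apart where they overlap. Iqgap2 averaged 310.3 ± 10.5, 376.7 ± 23.2 and 376.4 ± 51.6 CPM in CD201+CD48-, CD201+CD48+ and CD201- cells. Its part in the F2rl2 counts was not tested.

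F2rl3, the gene of PAR4 (chromosome 8, 72761659 to 72763898), passed the test in none of the 3 comparisons. It had 30.9, 30.1 and 33.2 CPM in CD201+CD48- libraries, 27.3, 26.6 and 26.1 CPM in CD201+CD48+ libraries and 33.0, 31.6 and 21.0 CPM in CD201- libraries. The CD201+CD48- libraries lay above the CD201+CD48+ libraries without overlap, but the difference did not pass (log2 fold change 0.23 ± 0.14, edgeR adjusted p = 0.301). CD201- replicate 3 was the lowest of the 9 libraries. Without it the log2 fold change between CD201+CD48- and CD201- cells was -0.04 (adjusted p = 0.789), against 0.14 ± 0.14 with it (adjusted p = 0.46), and between CD201+CD48+ and CD201- cells it was -0.27 (adjusted p = 0.0683), against -0.1 ± 0.14 (adjusted p = 0.646).

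The sequences upstream of the thrombin receptor genes are shown because these related receptors differed in their patterns, and because promoters of megakaryocyte genes often carry GATA, ETS and RUNX motifs. Windows of 250 bases before the RefSeq transcript start (GRCm38.p6, gene strand, 5′ to 3′) were searched on both strands. The letters sought were AGATAA or its variant TGATAA for GATA factors, CAGGAAG or its variant CCGGAAG for ETS factors, and those of TGTGGT for RUNX factors. Matches do not overlap in the windows printed, and capitals mark them.
F2r, chr13:95618467-95618716, minus strand: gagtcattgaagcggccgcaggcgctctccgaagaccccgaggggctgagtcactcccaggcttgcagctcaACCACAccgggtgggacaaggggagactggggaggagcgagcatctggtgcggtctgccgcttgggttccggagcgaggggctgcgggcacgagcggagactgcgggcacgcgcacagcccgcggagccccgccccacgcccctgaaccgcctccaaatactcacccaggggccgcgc
F2rl2, chr13:95696670-95696919, plus strand: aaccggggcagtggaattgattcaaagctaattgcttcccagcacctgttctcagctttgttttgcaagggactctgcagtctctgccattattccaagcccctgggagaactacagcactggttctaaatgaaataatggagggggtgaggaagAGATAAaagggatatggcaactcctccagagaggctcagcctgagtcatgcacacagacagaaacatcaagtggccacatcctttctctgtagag
F2rl3, chr8:72761409-72761658, plus strand: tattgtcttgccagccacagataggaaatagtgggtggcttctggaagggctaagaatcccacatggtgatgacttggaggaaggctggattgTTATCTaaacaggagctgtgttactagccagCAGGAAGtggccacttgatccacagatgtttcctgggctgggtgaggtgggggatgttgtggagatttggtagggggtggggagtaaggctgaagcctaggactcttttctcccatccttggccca
F2r held 1 RUNX match on the opposite strand, 178 to 173 bases before the start. F2rl2 held 1 GATA match 95 to 90 bases before the start, and F2rl3 held a GATA match on the opposite strand at 157 to 152 and an ETS match at 126 to 120 bases. Among 32851 windows of all genes, 16.6% held a GATA, 17% an ETS and 14% a RUNX match. The windows differed in base composition, with G and C making up 70.8% in F2r, 48.4% in F2rl2 and 52.0% in F2rl3, against a median of 52.4% over all windows. RefSeq windows were given for 8 of the 10 genes, those other than Pde3a and Cd226. Of the remaining windows, P2rx1 held 1 GATA match, and P2ry12, Trpc6, Plek and Alox12 held none of the motifs. The P2rx1 and Alox12 windows reach into the annotated gene by 89 and 10 bases. All 250 bases of the Trpc6 window lie inside its annotated gene, so it holds no sequence upstream of that gene.

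P2ry12, the Gi-coupled ADP receptor blocked by clopidogrel, had 1 count in each population, in CD201+CD48- replicate 2, CD201+CD48+ replicate 3 and CD201- replicate 3, and 0 in the other 6 libraries. In those 6 libraries a count of 0 allows up to 3 counts, or 0.513 to 0.664 CPM depending on the library, counting error alone being covered. The gene lies inside Med12l (chromosome 3, 59005419 to 59318446), which averaged 142.6 ± 9.63, 133.3 ± 2.72 and 145.2 ± 11 CPM in CD201+CD48-, CD201+CD48+ and CD201- cells. The Gq-coupled ADP receptor gene P2ry1, named after its values were seen, averaged 6.22 ± 0.775, 4.4 ± 0.532 and 8.45 ± 2.03 CPM and was lower in CD201+CD48+ than in the CD201- population (log2 fold change -0.95 ± 0.23, edgeR adjusted p = 0.00694).

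P2rx1 (chromosome 11, 72999056 to 73015200), the ATP-gated cation channel of platelets, had 27.5, 24.5 and 31.0 CPM in CD201+CD48- libraries, 17.1, 14 and 15 CPM in CD201+CD48+ libraries and 27.4, 32.7 and 26.7 CPM in CD201- libraries. The CD201+CD48+ libraries lay below all others, and the remaining populations overlapped. P2rx1 was 1.80-fold higher in CD201+CD48- than in CD201+CD48+ cells (log2 fold change 0.85 ± 0.14, edgeR adjusted p = 5.35e-04) and lower in CD201+CD48+ than in the CD201- population (-0.91 ± 0.14, adjusted p = 1.45e-04). For CD201+CD48- over CD201- cells the log2 fold change was -0.06 ± 0.13 (adjusted p = 0.723).

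Plek encodes pleckstrin, the major protein kinase C substrate of platelets, and like P2rx1 was lowest in CD201+CD48+ cells. Plek (chromosome 11, 16971206 to 17008718) had 246.6, 246.8 and 237.6 CPM in CD201+CD48- libraries, 118.9, 131.0 and 127.8 CPM in CD201+CD48+ libraries and 207.8, 195.8 and 202.9 CPM in CD201- libraries. No libraries of different populations overlapped. Plek was 1.94-fold higher in CD201+CD48- than in CD201+CD48+ cells (log2 fold change 0.95 ± 0.07, edgeR adjusted p = 2.4e-07), 1.21-fold higher in CD201+CD48- than in the CD201- population (0.27 ± 0.07, adjusted p = 0.00487) and lower in CD201+CD48+ than in the CD201- population (-0.68 ± 0.07, adjusted p = 5.36e-06).

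**Figure D2:**
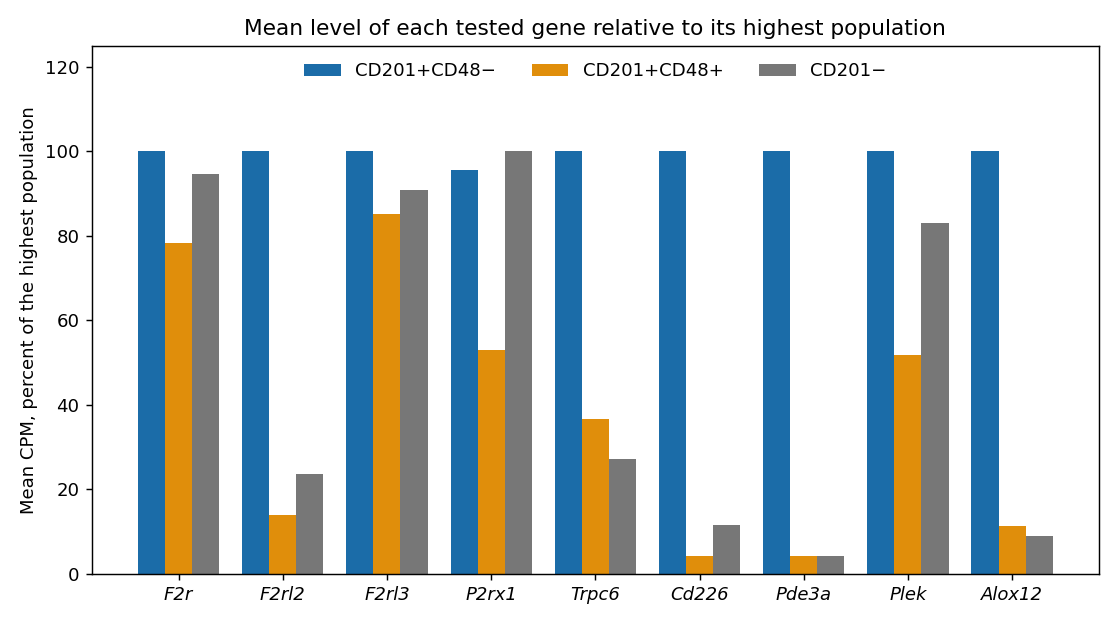
Mean CPM of each tested gene in each population as a percent of its highest population mean (vertical axis; bars from 0, no error shown). Plek stood at 51.7% and P2rx1 at 53.0% in CD201+CD48+ cells, with CD201- cells at 83.0% and 100%, whereas Pde3a stood at 4.21% and 4.24% and Alox12 at 11.2% and 8.82% in CD201+CD48+ and CD201- cells.

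Trpc6, a diacylglycerol-gated calcium-permeable channel, was the most abundant of the genes that stood out in CD201+CD48- cells. Trpc6 (chromosome 9, 8543867 to 8680752) had 57.7, 63.7 and 50.3 CPM in CD201+CD48- libraries, 18.6, 20.8 and 23.5 CPM in CD201+CD48+ libraries and 13.3, 14.2 and 19.1 CPM in CD201- libraries. Every CD201+CD48- library lay above every other library, and the other populations overlapped at their edges. Trpc6 was 2.71-fold higher in CD201+CD48- than in CD201+CD48+ cells (log2 fold change 1.44 ± 0.13, edgeR adjusted p = 3.14e-06) and 3.68-fold higher than in the CD201- population (1.88 ± 0.15, adjusted p = 7.29e-08). A call for CD201+CD48+ over CD201- cells (0.44 ± 0.16, adjusted p = 0.0486) was lost in 13 of 17 alternatives, whose adjusted p-values ran from 0.00121 to 0.2. Those that lost it included the fits without CD201+CD48- replicates 1, 2 or 3, CD201- replicates 1 or 2 and CD201+CD48+ replicates 2 or 3. Without CD201- replicate 3 it was 0.62 (adjusted p = 0.00121). The long noncoding RNA gene Gm32014 overlaps part of Trpc6, and its part in the Trpc6 counts was not tested.

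Cd226, which encodes the adhesion receptor DNAM-1 of platelets, T cells and NK cells, had few counts outside CD201+CD48- cells. Cd226 (chromosome 18, 89176954 to 89272232) had 87, 65 and 45 counts in the CD201+CD48- libraries, 1, 3 and 7 in CD201+CD48+ libraries and 13, 8 and 1 in CD201- libraries, or means of 13.9 ± 3.46, 0.567 ± 0.396 and 1.61 ± 1.33 CPM. Every CD201+CD48- library lay above every other library. The log2 fold change was 4.49 ± 0.47 between CD201+CD48- and CD201+CD48+ cells (22.5-fold, edgeR adjusted p = 1.6e-05) and 3.1 ± 0.42 between CD201+CD48- and CD201- cells (8.57-fold, adjusted p = 3.18e-05), and these were 5.18 without CD201+CD48+ replicate 3 and 3.8 without CD201- replicate 1. Between CD201+CD48+ and CD201- cells it was -1.39 ± 0.72 (adjusted p = 0.164), and without CD201- replicate 3, the library with 1 count, it was -1.9 (adjusted p = 0.005). Of 16 T, NK and B cell markers, 15 averaged under 1 CPM in each population, the T cell receptor complex genes Cd3e and Cd3g had 0 counts in all libraries, and the summed level of the list was 1.26 to 4.24, 6.61 to 8.11 and 8.77 to 17.4 CPM in CD201+CD48-, CD201+CD48+ and CD201- libraries. Nkg7, the 1 tested gene of the list, made up most of these sums with 1.56, 6.07 and 13.4 CPM, while the NK cell gene Klrb1c averaged 0.482, 0.229 and 0.0717 CPM and Cd4 0.35, 0.292 and 0.0717 CPM. The part of such cells in the Cd226 values was not tested.

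Pde3a encodes the cyclic AMP phosphodiesterase that cilostazol inhibits in platelets. Pde3a (chromosome 6, 141249269 to 141506862) had 52, 41 and 50 counts in the CD201+CD48- libraries, 0, 1 and 8 in CD201+CD48+ libraries and 0, 4 and 2 in CD201- libraries, or means of 10.2 ± 0.955, 0.43 ± 0.588 and 0.433 ± 0.43 CPM. No library outside the CD201+CD48- population reached the lowest CD201+CD48- value, 9.18 CPM. Its log2 fold change was 4.46 ± 0.56 between CD201+CD48- and CD201- cells (22.1-fold, edgeR adjusted p = 1.14e-05) and 4.32 ± 0.5 between the CD201+ populations (20.0-fold, adjusted p = 3.21e-05). CD201+CD48+ replicate 3 held most of the counts of its population, and without it the value between the CD201+ populations was 6.46. Without CD201- replicate 2 the value against CD201- cells was 5.38. Between CD201+CD48+ and CD201- cells no difference was detectable at this depth (0.14 ± 0.96, adjusted p = 0.929).

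Alox12 encodes platelet 12-lipoxygenase, which forms 12-HETE from arachidonic acid. Alox12 (chromosome 11, 70241457 to 70255380) had 30, 15 and 15 counts in the CD201+CD48- libraries, 3, 1 and 5 in CD201+CD48+ libraries and 1, 1 and 3 in CD201- libraries, or means of 4.14 ± 1.03, 0.463 ± 0.253 and 0.365 ± 0.254 CPM. Every CD201+CD48- library lay above every other library. It was 10.9-fold higher in CD201+CD48- than in the CD201- population (log2 fold change 3.45 ± 0.52, edgeR adjusted p = 6.49e-05) and 8.28-fold higher than in CD201+CD48+ cells (3.05 ± 0.45, adjusted p = 2.84e-04). Without CD201- replicate 3 the log2 fold change against CD201- cells was 4.13. CD201+CD48+ and CD201- cells did not differ past the threshold (0.4 ± 0.77, adjusted p = 0.738). Alox12 lies inside the long noncoding RNA gene Gm40191, whose part in these low counts was not tested.

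**Figure D3:**
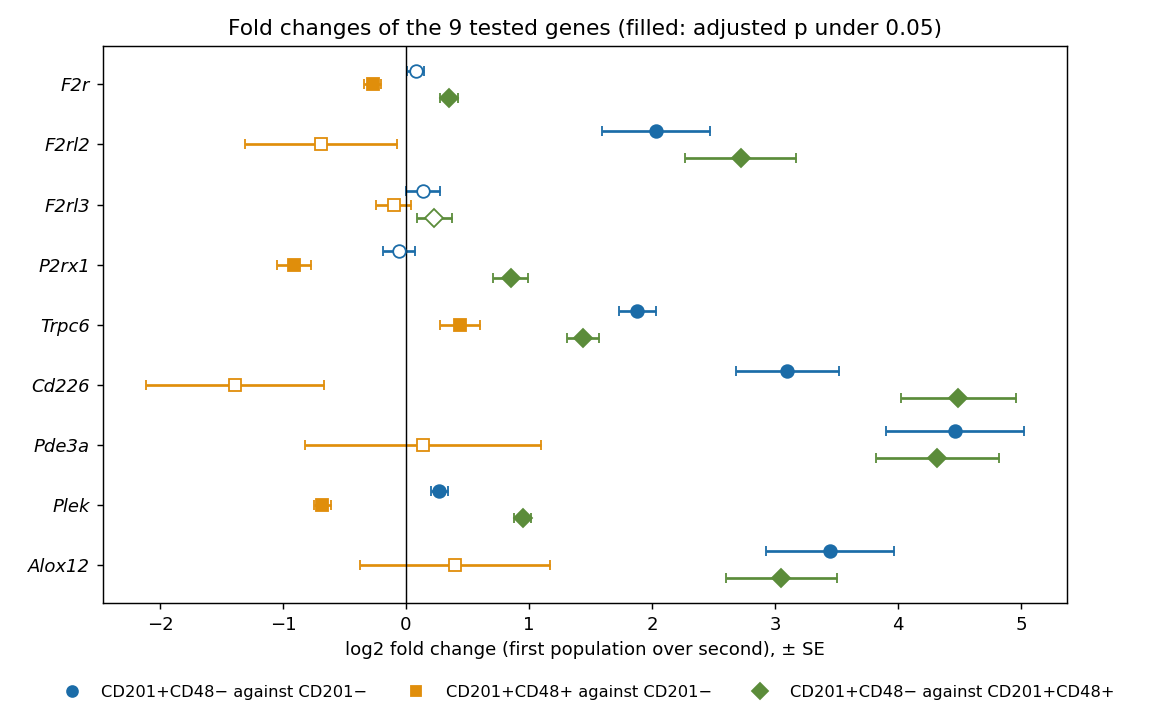
Log2 fold change ± SE (horizontal axis) of the 9 tested genes in the 3 comparisons, first-named population over second; filled symbols have edgeR adjusted p under 0.05. Pde3a, Cd226, Alox12, F2rl2 and Trpc6 lie at 1.44 or more in both comparisons of CD201+CD48- cells, and P2rx1, Plek and F2r lie left of 0 between CD201+CD48+ and CD201- cells.

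Per kilobase of exon, which allows levels to be compared between genes, F2r led in each population with 56.4 ± 1.58, 44.2 ± 0.641 and 53.3 ± 1.54 CPM per kilobase in CD201+CD48-, CD201+CD48+ and CD201- cells (SD, n = 3 each), and Plek followed with 42.2 ± 0.918, 21.8 ± 1.08 and 35.1 ± 1.05. P2rx1 and F2rl3 came next in CD201+CD48- cells with 10.3 ± 1.21 and 9.08 ± 0.472 CPM per kilobase, values whose ranges overlapped, before Trpc6 at 7.57 ± 0.889. The level per kilobase then dropped to 2.79 ± 0.695 for Cd226, 1.36 ± 0.282 for F2rl2, 0.994 ± 0.248 for Alox12 and 0.794 ± 0.0743 for Pde3a, of which Alox12 and Pde3a overlapped each other and F2rl2 overlapped Alox12. Lengths were unions of annotated exons and not those of the transcripts present.

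The 9 tested genes also differed in which of all tested genes they tracked over the 9 libraries, given as Pearson correlations of log2 CPM over libraries that share 3 populations. The gene most like F2r was the protein kinase C gene Prkca (r = 0.98), and Rab27b, a GTPase gene of platelet granule secretion, was close to both Plek (r = 0.989) and F2r (r = 0.973). P2rx1 was most like Mapkapk3 (r = 0.977) and Alox5 (r = 0.967), Trpc6 like Nckap1 (r = 0.987), Pde3a like Gng11 (r = 0.98), Alox12 like Ptpn14 and Ets2 (both r = 0.978), Cd226 like Sdpr and Itm2c (both r = 0.98), F2rl2 like Ehd2 (r = 0.972) and F2rl3 like Glb1 (r = 0.966). Among the 9 genes themselves, F2r and Plek correlated at 0.98 and Trpc6 and Alox12 at 0.96, whereas P2rx1 and Trpc6 correlated at 0.18.

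Markers of megakaryocytes and platelets had their highest summed level in CD201+CD48- cells. The summed level of 19 such markers found in the table was 2348.0 to 2486.0 CPM in CD201+CD48- libraries, 850.6 to 886.2 CPM in CD201+CD48+ libraries and 1195.3 to 1365.4 CPM in CD201- libraries. None of the 19 had 0 counts in any population. Of 17 tested, 12 were higher and another 1 was lower in CD201+CD48- cells against CD201- cells (24.2% and 23.9% of all tested genes). In CD201+CD48+ cells against CD201- cells 1 was higher and 10 lower (14.8% and 14.3%). Between the CD201+ populations 15 were higher and 0 lower (9.05% and 6.31%). Among these markers, Gp1bb, Gp6 and Clec1b averaged under 1.92 CPM, the level needed for testing, in CD201+CD48+ and CD201- cells. They had to differ in order to be tested, so the counts support nothing about the list. The 12 mast cell and basophil markers summed to 5.54 to 9.60, 4.54 to 6.24 and 37.4 to 45.8 CPM in CD201+CD48-, CD201+CD48+ and CD201- libraries, with 6, 4 and 5 of them at 0 counts. Most of these sums came from Gzmb, at 4.57, 1.65 and 31.9 CPM, and Cpa3, at 1.5, 1.95 and 6.78 CPM. Of the 12, 10, 10 and 9 averaged under 1 CPM. Neutrophil, monocyte and macrophage markers, cells that also express P2rx1 and Plek, summed to 165.2 to 185.1, 120.5 to 126.2 and 82.0 to 111.5 CPM in CD201+CD48-, CD201+CD48+ and CD201- libraries, with 5 of 18 at 0 counts in each population, S100a9 among them in all. The sums followed Lyz2, which averaged 135.0, 89.3 and 56.1 CPM, whereas Mpo averaged 0, 1.24 and 10.2 CPM and Ctsg 0.143, 0.401 and 2.91 CPM. Of 7 tested, 3 were higher and another 2 were lower in CD201+CD48- cells against CD201- cells (median log2 fold change 0.23). Between the CD201+ populations 2 were higher and 1 lower (median 0.25). Of all tested genes, 48.1% and 15.4% were called in these comparisons in either direction. Mpo and Ctsg averaged under 1.92 CPM in both CD201+ populations. They had to differ from CD201- cells in order to be tested, so these counts also support nothing about their list. Erythroid markers summed to 301.7 to 337.9, 265.7 to 291.2 and 266.9 to 288.5 CPM, with 4, 3 and 4 of 13 at 0 counts. Endothelial and stromal markers summed to 189.0 to 204.8, 156.2 to 174.1 and 218.0 to 224.6 CPM, with none of 10 at 0. Pecam1 (91.7, 85.5 and 130.5 CPM) and Pdgfrb (5.17, 17.7 and 48.4 CPM) were lower in CD201+CD48- cells against CD201- cells, whereas Cdh5, Emcn, Tek and Kdr were higher. Thus 4 of 6 tested were higher and 2 lower (median 0.84), against 48.1% of all tested genes called in either direction. Between the CD201+ populations 4 were higher and 1 lower (median 0.51), against 15.4%. The single markers named for these lists were picked after their values were seen. HSC markers summed to 1991.7 to 2075.1, 1368.6 to 1408.3 and 711.3 to 779.7 CPM, with Hoxb5 at 0 in CD201- cells. With 9 of them eligible for edgeR, upward calls numbered 9 for CD201+CD48- relative to CD201- cells (median log2 fold change 1.86). CD201+CD48+ cells had 7 such calls relative to CD201- cells (median 0.97). Taking CD201+CD48- relative to CD201+CD48+ cells gave 6 (median 0.74), and downward calls numbered 0 throughout. The background of calls in either direction was 48.1%, 29.1% and 15.4%. Procr, the transcript of the sort marker CD201, is on this list, so its calls against CD201- cells are tied to the sort. The list also holds Slamf1, Kit and Ly6a, which encode the sort markers CD150, Kit and Sca-1. These counts and sums therefore support nothing about the HSC list. The part of any of these cell types in the results was not tested.

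Other genes of platelet signalling were counted in 5 lists that exclude the 10 genes. Among other platelet agonist and purinergic receptors, 17 of 25 were tested. Of these, 7 were higher and 1 lower in CD201+CD48- than in the CD201- population (median log2 fold change 0.58, against 0.003 over all tested genes, of which 48.1% were called in either direction), 3 higher and 2 lower in CD201+CD48+ than in the CD201- population (median 0.11 against -0.002, and 29.1% called), and 3 higher and 0 lower in CD201+CD48- than in CD201+CD48+ cells (median 0.27 against -0.005, and 15.4% called). The called shares, 47.1%, 29.4% and 17.6%, were near those of all tested genes. The last count was 5 without CD201- replicate 3 and 1 without CD201+CD48- replicate 1 or 3 or CD201+CD48+ replicate 2 or 3. Entpd1, the ectonucleotidase CD39 that degrades ADP and ATP, averaged 27.2 ± 2.33, 17.2 ± 1.65 and 6.57 ± 2.45 CPM in CD201+CD48-, CD201+CD48+ and CD201- cells (log2 fold change 2.05 ± 0.20 between CD201+CD48- and CD201- cells, edgeR adjusted p = 7.92e-07). P2rx4, another ATP-gated channel gene, averaged 21.0 ± 1.38, 18.7 ± 0.479 and 11.8 ± 2.24 CPM. Unlike P2rx1, it exceeded its CD201- level in CD201+CD48- and in CD201+CD48+ cells (adjusted p = 3.52e-04 and 0.00406). The prostaglandin E2 receptor gene Ptger3 ran the other way, at 23.1 ± 1.71, 22.9 ± 2.04 and 55.3 ± 8.32 CPM (adjusted p = 1.33e-06 and 2.87e-06 for the CD201+ populations against CD201- cells).

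The list of G proteins and proximal signalling genes had 35 tested members. Of these, 10 were higher and another 9 were lower in CD201+CD48- than in the CD201- population (median 0.03), 8 higher and 11 lower in CD201+CD48+ than in the CD201- population (median -0.07), and 8 higher and 4 lower between the CD201+ populations (median 0.09). The called shares were 54.3%, 54.3% and 34.3%, against 48.1%, 29.1% and 15.4% of all tested genes. The second count, 19 in all, was 12 without CD201+CD48+ replicate 3. Arhgef12, whose product acts downstream of G12 and G13 proteins, averaged 140.7 ± 8.75, 78.6 ± 4.83 and 53.5 ± 3.80 CPM in CD201+CD48-, CD201+CD48+ and CD201- cells. Its log2 fold change was 1.4 ± 0.09 between CD201+CD48- and CD201- cells (edgeR adjusted p = 6.13e-09) and 0.84 ± 0.08 between the CD201+ populations (adjusted p = 4.59e-06). Gnaq, the G protein through which thrombin receptors raise calcium, averaged 75.8 ± 4.66, 67.9 ± 6.19 and 42.8 ± 2.0 CPM, above CD201- cells in each CD201+ population (adjusted p = 5.13e-06 and 1e-04). The tyrosine kinase gene Src averaged 8.95 ± 1.46, 2.49 ± 0.507 and 1.02 ± 0.439 CPM, and the adaptor gene Lat, which platelets share with T and mast cells, 19.1 ± 1.43, 16.1 ± 0.455 and 45.7 ± 1.66 CPM (log2 fold change of Lat -1.26 ± 0.11 for CD201+CD48- over CD201- cells, adjusted p = 2.27e-07).

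In the list of calcium, protein kinase C and Rap1 genes, 10 of 25 tested were higher and another 1 was lower in CD201+CD48- than in CD201+CD48+ cells (median 0.21), 9 higher and 4 lower in CD201+CD48- than in the CD201- population (median 0.1), and 3 higher and 8 lower in CD201+CD48+ than in the CD201- population (median -0.16). The called shares were 44.0%, 52.0% and 44.0%, against 15.4%, 48.1% and 29.1% of all tested genes in the same comparisons. The first count, 11 in all, was 7 without CD201+CD48- replicate 3, and the second, 13 in all, was 8 without CD201+CD48- replicate 1. Prkca, which phosphorylates pleckstrin, averaged 70.4 ± 2.95, 35.4 ± 2.92 and 57.5 ± 3.02 CPM in CD201+CD48-, CD201+CD48+ and CD201- cells, the order also seen for Plek. It was 0.99 ± 0.09 higher on the log2 scale between the CD201+ populations (edgeR adjusted p = 2.94e-06) and 0.7 ± 0.09 lower in CD201+CD48+ than in the CD201- population (log2 fold change -0.7, adjusted p = 6.02e-05). Another isoform gene, Prkcq, averaged 98.8 ± 3.07, 53.8 ± 3.02 and 29.7 ± 4.64 CPM, an order closer to that of Trpc6 (adjusted p = 1.47e-05 for CD201+CD48- against CD201+CD48+ cells and 3.01e-05 for CD201+CD48+ against CD201- cells). The inositol trisphosphate receptor gene Itpr2 was lower in CD201+CD48- than in both other populations, at 47.9 ± 3.1 CPM against 94.4 ± 1.92 and 113.6 ± 15.4 CPM in CD201+CD48+ and CD201- cells (adjusted p = 7.56e-06 and 1.05e-07).

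Among cyclic nucleotide genes, the group of Pde3a, 12 of 23 tested were higher and another 5 were lower in CD201+CD48- than in the CD201- population (median 0.29), 7 higher and 5 lower in CD201+CD48+ than in the CD201- population (median 0.18), and 10 higher and 1 lower between the CD201+ populations (median 0.27). The called shares were 73.9%, 52.2% and 47.8%, against 48.1%, 29.1% and 15.4% of all tested genes. The last count, 11 in all, was 6 without CD201+CD48- replicate 3 and 7 without CD201+CD48+ replicate 3. Mrvi1, which encodes the cyclic GMP kinase substrate IRAG, averaged 53.2 ± 8.96, 3.79 ± 0.90 and 12 ± 1.53 CPM in CD201+CD48-, CD201+CD48+ and CD201- cells. Its log2 fold change was 3.81 ± 0.18 between the CD201+ populations (edgeR adjusted p = 1.11e-09), 2.15 ± 0.16 for CD201+CD48- over CD201- cells and -1.66 ± 0.23 for CD201+CD48+ over CD201- cells (adjusted p = 4.04e-08 and 7.02e-05). Prkg1, the cyclic GMP-dependent kinase gene, averaged 52.1 ± 5.05, 31.3 ± 5.17 and 17.4 ± 2.61 CPM, and the adenylyl cyclase gene Adcy6 39.6 ± 1.75, 28.4 ± 3.90 and 11.8 ± 0.803 CPM, both higher in CD201+CD48- cells than in the CD201- population (adjusted p = 4.61e-07 and 6.85e-08). Prkar2b, a regulatory subunit gene of cyclic AMP-dependent kinase, was lower in both CD201+ populations, at 177.0 ± 1.22 and 127.7 ± 9.53 CPM against 279.9 ± 14.4 CPM in CD201- cells (adjusted p = 4.43e-06 and 6.35e-08).

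Eicosanoid synthesis genes, the group of Alox12, had 2 of 11 tested members higher and 4 lower in CD201+CD48- than in the CD201- population (median -0.17), 0 higher and 4 lower in CD201+CD48+ than in the CD201- population (median -0.25), and 4 higher and 1 lower between the CD201+ populations (median 0.26). The called shares were 54.5%, 36.4% and 45.5%, against 48.1%, 29.1% and 15.4% of all tested genes, so those against CD201- cells were near the background. The last count, 5 in all, was 3 without CD201+CD48- replicate 1 or 2 or CD201+CD48+ replicate 2 or 3. Alox5, the 5-lipoxygenase gene, averaged 31.4 ± 1.11, 4.4 ± 0.476 and 41.8 ± 10.5 CPM in CD201+CD48-, CD201+CD48+ and CD201- cells. It was 2.85 ± 0.20 higher on the log2 scale in CD201+CD48- than in CD201+CD48+ cells (edgeR adjusted p = 1.58e-07) and its log2 fold change was -3.26 ± 0.20 for CD201+CD48+ over CD201- cells (adjusted p = 2.4e-08), a dip at CD201+CD48+ cells like that of P2rx1 and unlike Alox12. The thromboxane synthase gene Tbxas1 averaged 132.4 ± 11.8, 87.7 ± 2.21 and 97.8 ± 0.77 CPM and the 5-lipoxygenase activating protein gene Alox5ap 75.3 ± 4.27, 56.1 ± 5.02 and 48.9 ± 3.16 CPM, both higher in CD201+CD48- cells than in the CD201- population (adjusted p = 2.94e-04 and 7.52e-05).

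**Figure D4:**
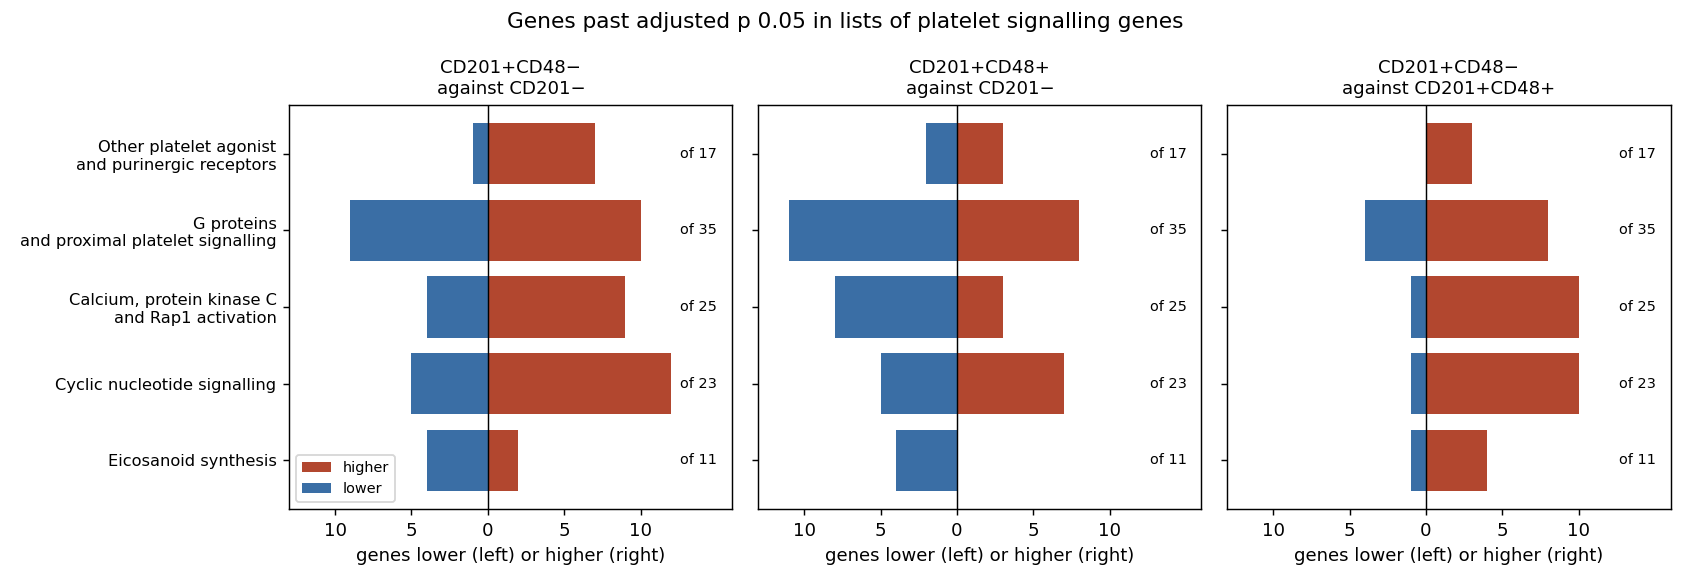
Number of genes higher (right) or lower (left) at edgeR adjusted p under 0.05 in 5 lists of platelet signalling genes, one panel per comparison, with the number tested at the right edge; higher means higher in the first-named population. Between the CD201+ populations 10 of 25 calcium, protein kinase C and Rap1 genes and 10 of 23 cyclic nucleotide genes were higher and 1 of each lower.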

How the data were processed

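Raw counts were used as deposited, as whole numbers per gene symbol that the authors had not normalized. The submitters' processing notes name the build mm10 and DESeq2, while the aligner, the annotation, the counter and its strand setting were not given in the sources used here. Per the labels' protocols, each population supplied over 5000 sorted cells, lysed in Trizol LS, and SMARTer cDNA libraries were sequenced as paired 36 nt reads. The normalized table and 3 further columns of per-sample values were not used.

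Counts of 9 libraries were scaled by TMM and tested with edgeR 4.0.16 (R 4.3.3; filterByExpr with a minimum count of 10, glmQLFit robust, group as the only factor), with Benjamini-Hochberg adjustment over 11619 tested genes and a threshold of 0.05. The SE was taken as |log2 fold change| / √F. The prior count of log2 CPM was 2. Exon lengths came from GENCODE, and coordinates and promoters from RefSeq GRCm38.p6. The test was also run on simulated counts drawn with the fitted spread of each gene. These held no outlying library, so the check does not cover one like CD201- replicate 3. Alternatives also used DESeq2 1.42.0 and limma 3.58.1. Comparisons share populations and are not independent.

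The genes and lists were chosen with earlier results of these data known. Each list names up to 4 genes with the smallest p over the comparisons, and the 2 most correlated genes per tested gene were eligible to be named. The symbols Pde2a, Gucy1a1, Gucy1b1 and Irag1 of the signalling lists and Cavin2 of the platelet markers had no row in the table. Gucy1a1, Gucy1b1 and Irag1 are other names of Gucy1a3, Gucy1b3 and Mrvi1, which were listed too and had rows. Cavin2 is another name of Sdpr, which was not counted among the markers.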

Additional observations from a re-analysis of the deposited data

How the results depend on the processing

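Over 17 alternatives (RLE size factors, library size alone, DESeq2, limma-voom, no filter, a filter of 1 CPM in 3 libraries, the 6 libraries compared, a replicate block and leaving out each of 9 libraries), 6 to 7 of the 10 genes passed between CD201+CD48- and CD201- cells, 3 to 5 between CD201+CD48+ and CD201- cells and 8 in each between the CD201+ populations. Of 455 fold changes of the 9 tested genes under alternatives, 429 kept direction and call. Those that changed sign were called neither in the fit reported nor in the alternative. P2rx1 between CD201+CD48- and CD201- cells was 0.11 with library size alone, and leaving out libraries gave -0.15 to 0.03 for it and -0.04 to 0.25 for F2rl3. Between CD201+CD48+ and CD201- cells F2rl3 was 0.03 with library size alone and -0.27 to 0.02 without single libraries, Pde3a was -0.35 with limma-voom and -2 to 1.06 without single libraries, and Alox12 ranged from -0.02 to 1.08 without single libraries. The named gene alternatives were added after seeing the data. Among them, leaving out libraries gave -0.13 to 0.11 for Ptger4 between CD201+CD48+ and CD201- cells and -0.04 to 0.09 for Ptger3 between the CD201+ populations, where Ptger3 was 0 with no filter. The number of all tested genes called between the CD201+ populations, 1785, was 3339 in the fit of 6 libraries and 1023 to 3534 without single libraries. It was highest without CD201- replicate 3 and lowest without CD201+CD48- replicate 1. The cause was not tested. Library size alone moved the median of all genes by 0.17 and 0.13 in the comparisons of CD201+CD48- and CD201+CD48+ with CD201- cells, and gave 3974 higher and 1685 lower genes (2807 and 2778 in the fit reported) and 2701 higher and 851 lower (1723 and 1661).

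Replicate numbers recur in each population, but nothing ties them to shared cultures. Deviations of same-numbered libraries from their population means correlated at -0.113 to 0.045. With the replicate block 6, 3 and 8 of the 10 genes passed in the 3 comparisons, and 5322, 3038 and 1441 of all tested genes. Depth limits F2rl2, Pde3a, Alox12, Cd226 and P2ry12, whose counts in CD201+CD48+ and CD201- libraries were 13 or fewer.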
